A study of Homo sapiens with 5 samples.

Results

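The lysosome genes described here were the genes whose names began with ATP6V0 or ATP6V1, together with the lettered cathepsins (CTSA to CTSZ) and LAMP1, LAMP2 and LAMP3. The naming rule found 42 of the 27189 genes in the files. They were 9 genes for the V0 sector and 13 for the V1 sector of the proton pump, 15 cathepsins, 3 LAMP genes, the pseudogene ATP6V0CP3 and the antisense transcript ATP6V0E2-AS1. Apart from CTSG, which had no read in any library, the members reached at least 1 transcript per 1000000 (TPM) in at least 1 library, so that 41 members were compared.

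The lysosome is the acidic compartment in which cells break down proteins, lipids and organelles. The V-ATPase acidifies it: the cytosolic V1 sector hydrolyses ATP and turns a rotor, and the membrane-embedded V0 sector moves protons into the lumen. The cathepsins are proteases that work in this acid, and tumour cells can also release some of them into the surrounding matrix. LAMP1 and LAMP2 are heavily glycosylated proteins that line the lysosomal membrane, and LAMP3 is a relative best known from mature dendritic cells.

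The measurements came from the fibrosarcoma line HT1080, of human connective tissue origin, kept for 24 h inside gels of type I collagen at 2 mg/ml. LD was the culture at 10 cells per mm3 without added cytokine. IL-6 and IL-8 were cultures at that density given recombinant interleukin-6 or interleukin-8 alone, and RM received both in the ratio 5 to 2. HD was the culture at 50 cells per mm3 without added cytokine by its own label, although the general treatment text also speaks of cytokines given at that density. Each condition had 1 RNA-seq library, all from a single sequencing experiment, so no test between conditions was possible and intervals covered the counting of reads only. In a bulk culture, fewer expressing cells and less RNA per cell cannot be told apart.

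The ribosomal transcript RNA5-8S5 took 51.5% to 79.6% of the reads and was left out of the scaling. The reads that remained numbered 1645539 in LD, 1100967 with IL-6, 1120609 with IL-8, 1434366 for RM and 449661 for HD. A member with 3 reads, the smallest number treated as measurable, corresponded to between 1.82 and 6.67 reads per 1000000. The members with at least 1 read numbered 34 in LD, 30 with IL-6, 29 with IL-8, 28 for RM and 41 for HD, and the median member with a read had 11 reads in HD against 40 to 88.5 in the other libraries. HD stood apart throughout the transcriptome: 20112 genes had a read there, and 13468 to 15079 in the 4 low-density libraries, although it was the shallowest library. The 8 mesenchymal markers found had a summed level of 13600 to 17300 TPM in the low-density libraries and 3510 TPM in HD. At low density the highest were VIM, LGALS1, S100A6, ANXA2 and TAGLN2, while CD44 had 43.6 to 119 TPM. THY1 had 6 reads in LD and 0 with IL-6, IL-8 and RM.

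Many lysosomal genes share a short promoter element, an E-box of the letters CACGTG, to which the MiT/TFE transcription factors TFEB, TFE3 and MITF bind. Promoter windows from RefSeq (GRCh38.p14, 250 bases before to 50 after the start) matched 27 members by symbol. The windows of 8 members, 29.6%, held the longer form CACGTGA on either strand, against 4.49% of the windows of 27305 genes. The core CACGTG, which is contained in the longer form, was found in the windows of the same 8 members, and in 8.77% of all genes. The stretches before the start of these 8 genes are shown because the element they share was not used in choosing the members. CTSZ and CTSC, which had the largest differences in some of the comparisons below, had windows without it. Capitals mark the longer form or its reverse complement TCACGTG, and an overlap of both was taken as 1 match.

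ATP6V0B (chr1:43974887-43974941, plus strand): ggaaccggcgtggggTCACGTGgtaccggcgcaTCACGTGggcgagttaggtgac
CTSA (chr20:45891277-45891331, plus strand): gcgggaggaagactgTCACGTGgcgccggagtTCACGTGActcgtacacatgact
CTSD (chr11:1763953-1763989, minus strand): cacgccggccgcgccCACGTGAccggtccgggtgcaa
CTSF (chr11:66568708-66568744, minus strand): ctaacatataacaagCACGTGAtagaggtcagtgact
ATP6V0D1 (chr16:67481195-67481232, minus strand): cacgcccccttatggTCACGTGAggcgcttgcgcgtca
ATP6V0E2 (chr7:149872880-149872916, plus strand): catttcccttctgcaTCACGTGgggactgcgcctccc
ATP6V1G1 (chr9:114587695-114587732, plus strand): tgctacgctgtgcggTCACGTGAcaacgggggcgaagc
LAMP1 (chr13:113297031-113297117, plus strand): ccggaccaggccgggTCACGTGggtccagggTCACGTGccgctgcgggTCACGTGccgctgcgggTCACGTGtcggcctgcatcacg

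LAMP1 held the most matches before its start, 5, of which 4 are in the stretch shown. ATP6V0B and CTSA held 2 each, within 58 and 43 bases of their starts. ATP6V0E2 had 3 windows, and its stretch comes from the window with the match. Windows were not used here for CTSS, CTSK, CTSW, CTSO, CTSB, ATP6V0CP3, ATP6V0D2, ATP6V0E1, ATP6V1A, ATP6V1B2, ATP6V1C1, ATP6V1E2, ATP6V1H, LAMP2 and LAMP3. A match describes letters only, and binding was not measured here.

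At low density, 3 members carried most of the lysosome signal. CTSD, the main aspartic protease of the lysosome, had 1080 TPM in LD, 1300 with IL-6, 2120 with IL-8, 1080 for RM and 97 for HD. ATP6V0B, a proton-carrying subunit of the V0 rotor ring, had 1330 TPM in LD, 530 with IL-6, 2740 with IL-8, 625 for RM and 117 for HD. ATP6V1F, a small subunit of the V1 central stalk, had 866 TPM in LD, 1960 with IL-6, 1120 with IL-8, 1800 for RM and 95 for HD. The 3 highest members of each library together made up 56.8% of the summed member TPM in LD, 60.4% with IL-6, 75.8% with IL-8 and 63.3% in RM, but 27.8% in HD. CTSD was in second place in each low-density library, while first place went to ATP6V0B in LD and IL-8 and to ATP6V1F in IL-6 and RM.

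The next levels belonged to the remaining ring subunit and to the common lysosomal proteases. ATP6V0C, the main subunit of the V0 ring, had 437 TPM in LD, 540 with IL-6, 313 with IL-8, 257 for RM and 104 for HD. CTSL1, the gene for cathepsin L, a cysteine protease, had 461, 367, 250, 244 and 101 TPM in the same order of libraries. CTSA, a carboxypeptidase that also protects the enzymes GLB1 and NEU1, had 288, 311, 183, 711 and 5.22 TPM. The cysteine protease CTSB had 162, 176, 181, 94.1 and 148 TPM, so that HD lay within the range of the low-density libraries. ATP6V0D1, which links the V0 ring to the V1 stalk, had 191, 207, 225, 170 and 43.5 TPM. The small V0 subunit genes ATP6V0E1 and ATP6V0E2 had 212, 238, 150, 160 and 24.5 TPM and 86.2, 93.6, 69.8, 21.6 and 43.6 TPM. ATP6V1E1 had 98.5, 223, 236, 86.2 and 43.3 TPM, so that IL-6 and IL-8 stood above the other libraries. The membrane glycoprotein LAMP1 had 118 TPM in LD, 99.2 with IL-6, 60.9 with IL-8, 65.2 for RM and 59.5 for HD. Reads of the pseudogene ATP6V0CP3 could be shared with ATP6V0C, and those of CTSL1 with its close relative CTSL2, the gene for cathepsin V.

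**Figure D1:**
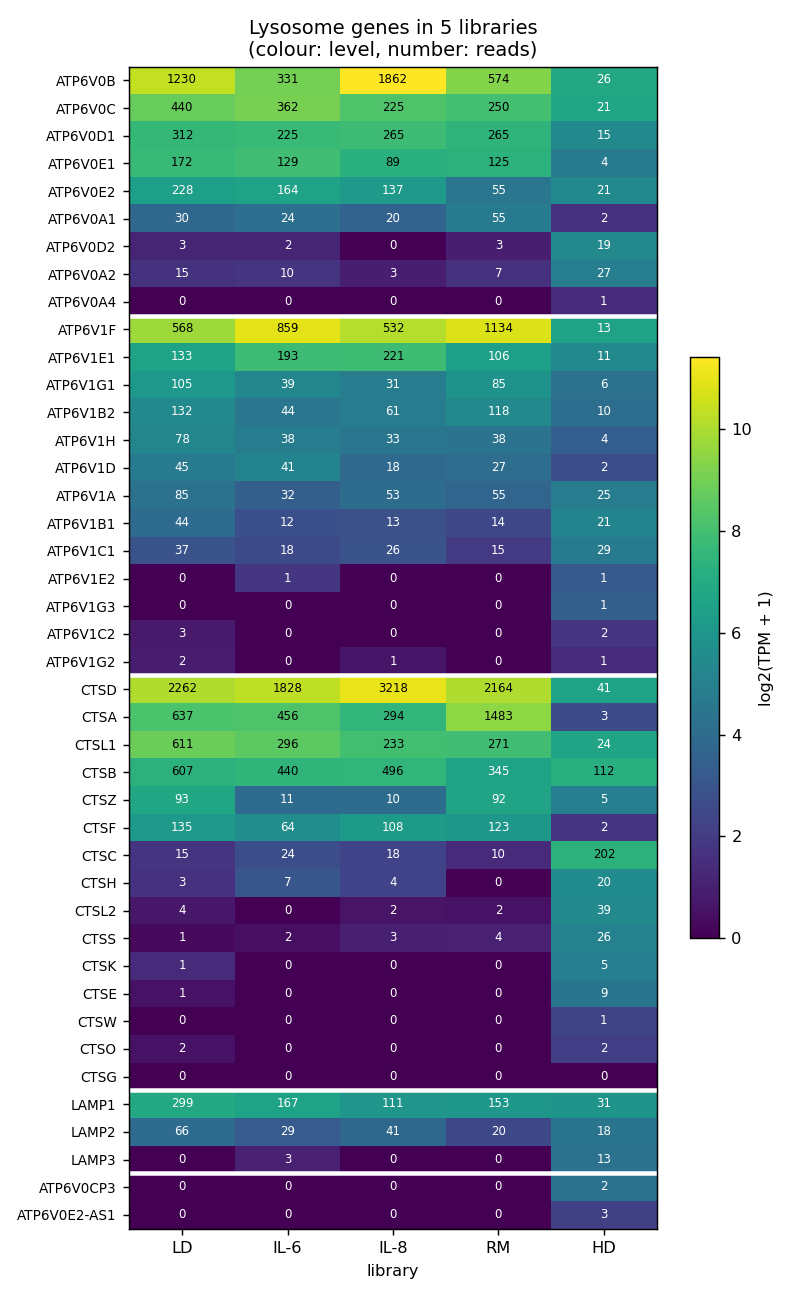
Level of the 42 members in the 5 libraries. Rows are genes grouped by class and ordered by mean level within a class, columns are libraries, colour is log2(TPM + 1) and the number in each cell is the read count; CTSD, ATP6V0B and ATP6V1F are brightest at low density, and the HD column lacks such bright cells.

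At the other end, 17 members had under 10 reads in each of the 4 low-density libraries. They included CTSS, CTSK, CTSE and CTSW, proteases known from immune cells, osteoclasts or the stomach, and the tissue-restricted pump genes ATP6V0A4, ATP6V0D2 and ATP6V1G3. No read was seen at low density for 6 members, among them ATP6V0A4, ATP6V1G3, CTSW and CTSG. Since 3 reads would have been needed to measure a level, their absence could not be told from a low level at this depth.

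Among the 19 members with at least 20 reads in each low-density library, the highest TPM was a median of 2 times the lowest, against 2.32 times for the 4498 genes at this depth. ATP6V0D1 varied least, with its highest level 1.33 times its lowest. ATP6V0B varied most, at 5.16 times, followed by ATP6V0E2 at 4.32 times, CTSA at 3.89 times and LAMP2 at 3.16 times.

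The summed TPM of the 9 V0 genes was 2270 in LD, 1630 with IL-6, 3510 with IL-8, 1260 for RM and 405 for HD, while that of the 13 V1 genes was 1180, 2320, 1470, 2040 and 297. V0 exceeded V1 in LD and IL-8 and lay below it in IL-6 and RM. These orders came from ATP6V0B and ATP6V1F: without these genes, V0 was above V1 in each low-density library, with 943 against 313 TPM in LD, 1100 against 367 with IL-6, 770 against 355 with IL-8 and 638 against 238 in RM. The cathepsins summed to 2180, 2230, 2840, 2300 and 723 TPM and the LAMP genes to 133, 109, 74.2, 69.9 and 97.6 TPM. All members together took 0.51% of the reads in LD, 0.531% with IL-6, 0.725% with IL-8 and 0.529% in RM. In HD the share was 0.182% (95% exact interval 0.17 to 0.195%).

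To ask which members differed with each cytokine alone, IL-6 and IL-8 were compared with LD. A member was counted as higher or lower when log2(TPM + 1) differed by at least 1. A stricter count also asked that the exact 95% interval of the ratio of read counts, each divided by its library total, left out 1. Because the comparisons share the LD library, their values are given side by side.

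With IL-6 alone, the lysosomal protease CTSZ was much lower and the V1 subunits ATP6V1F and ATP6V1E1 were higher. CTSZ, a carboxypeptidase also called cathepsin X, had 93 reads in LD and 11 in IL-6, or 113 and 14.8 TPM, a log2 difference of -2.86 (read ratio 0.177, 0.0853 to 0.331). ATP6V1F went from 568 to 859 reads, a difference of 1.17 (read ratio 2.26, 2.03 to 2.52). ATP6V1E1, a subunit of the peripheral stalk, went from 133 to 193 reads, also a difference of 1.17 (read ratio 2.17, 1.73 to 2.73). ATP6V0B differed in the other direction from these V1 subunits, from 1230 to 331 reads, a difference of -1.33 (read ratio 0.402, 0.355 to 0.454). On fewer reads, CTSC, which activates serine proteases of immune granules, was 1.03 higher with 15 and 24 reads. ATP6V1B1, a form of the B subunit best known from kidney and inner ear, was 1.19 lower on this scale, with 44 and 12 reads. These 6 members, 3 higher and 3 lower, were those past both criteria, where 6.14% of all 21313 genes were higher and 4.36% lower. On the fold criterion alone, 6 members were higher and 4 lower, against 12.2% and 8.42% of all genes, and under median-ratio scaling the split was 4 higher and 5 lower. The other abundant members had smaller differences: CTSD 0.27, CTSA 0.11, CTSB 0.12, ATP6V0C 0.30, CTSL1 -0.33 and LAMP1 -0.25.

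With IL-8 alone, CTSZ was low as well, and ATP6V0B was at its highest. CTSZ had 10 reads, or 15.2 TPM, a difference from LD of -2.82 (read ratio 0.158, 0.0733 to 0.304). ATP6V0B had 1862 reads, a difference of 1.04 (read ratio 2.22, 2.07 to 2.39), opposite in sign to that in IL-6. ATP6V1E1 had 221 reads, a difference of 1.25 (read ratio 2.44, 1.96 to 3.05), the same sign as in IL-6. ATP6V1G1, a subunit of the peripheral stalk beside subunit E, had 105 reads in LD and 31 in IL-8, a difference of -1.26 (read ratio 0.434, 0.281 to 0.653). ATP6V1B1 had 13 reads in IL-8, and its difference was -1.19. CTSD just missed the fold criterion at 0.97, although its 3218 reads gave a read ratio of 2.09 (1.98 to 2.21). LAMP1 also lay just inside at -0.94 (read ratio 0.545, 0.434 to 0.68). Both criteria were passed by 2 members in the higher and 3 in the lower direction, where the shares of all genes were 5.85% and 11%. By fold alone the counts were 2 and 5, against 9.4% and 18% of all genes. Median-ratio scaling gave 3 higher and 2 lower by fold, with ATP6V1G1 at -0.86 and ATP6V1B1 at -0.79, short of the criterion.

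**Figure D2:**
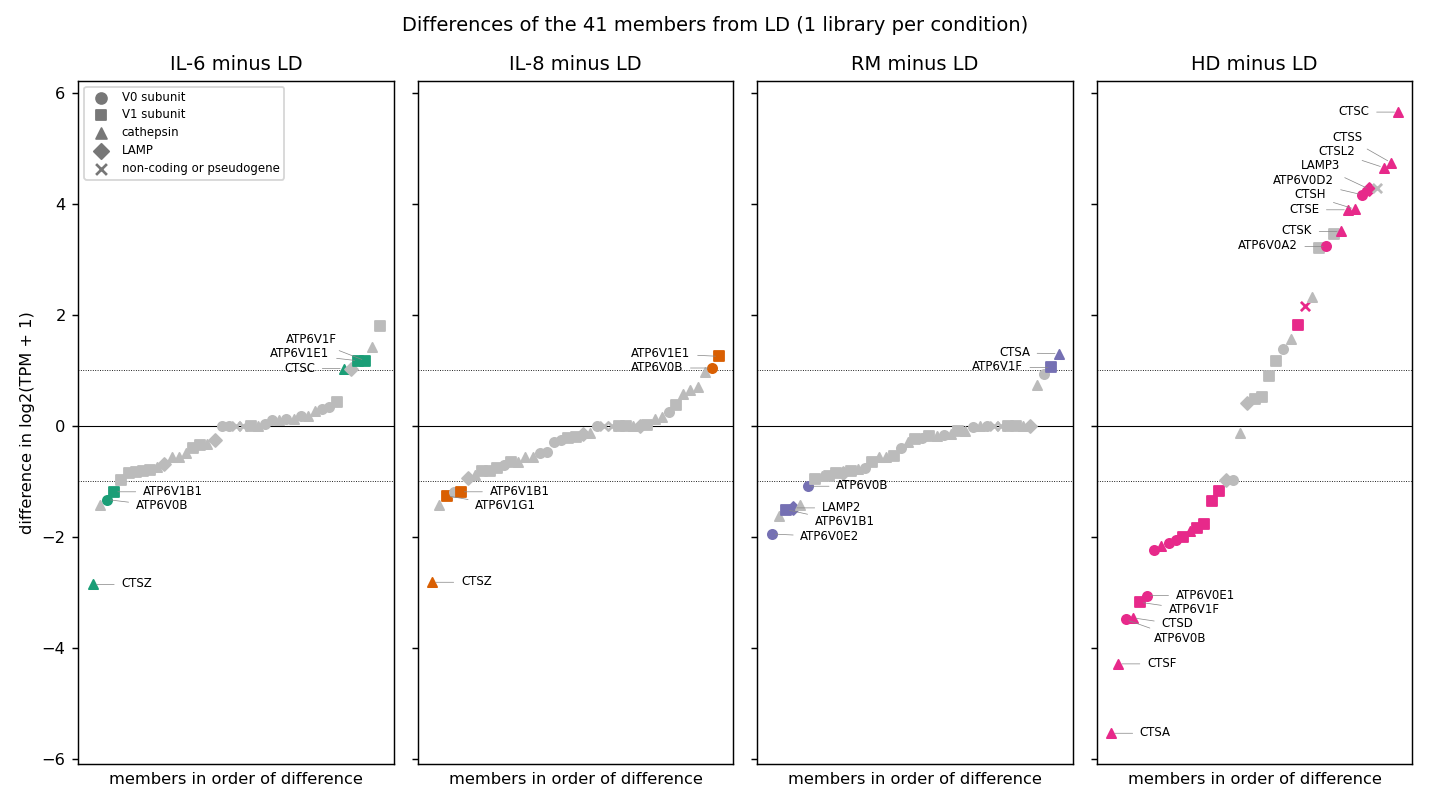
Difference of each of the 41 members from LD in the 4 comparisons. Each panel orders the members by their difference in log2(TPM + 1), on the vertical axis; coloured points passed both criteria, grey points did not, dotted lines are at 1 and -1, and in the HD panel names are given only beyond 3 log2 units. CTSZ lies lowest in IL-6 and IL-8, and the spread is far wider in HD than in the other comparisons.

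RM combined both cytokines and was compared with LD to ask which members differed under the mixture. CTSA was higher, with 637 reads in LD and 1483 in RM, or 288 and 711 TPM, a difference of 1.30 (read ratio 2.67, 2.43 to 2.94). ATP6V1F was higher as well, with 1134 reads and a difference of 1.05 (read ratio 2.29, 2.07 to 2.54). ATP6V0E2, a small membrane subunit of V0, was lower, with 228 reads in LD and 55 in RM, or 86.2 and 21.6 TPM, a difference of -1.95 (read ratio 0.277, 0.202 to 0.373). LAMP2, which also takes part in chaperone-mediated autophagy, was lower with 66 and 20 reads, a difference of -1.48 (read ratio 0.348, 0.2 to 0.581). ATP6V1B1 differed by -1.51 with 14 reads in RM. ATP6V0B had 574 reads and differed by -1.09 (read ratio 0.535, 0.484 to 0.592). CTSZ, which was low with either cytokine alone, had 92 reads in RM against 93 in LD and differed by -0.15.

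Both criteria were passed by 2 members upwards and 4 downwards in RM, where 5.09% of all genes were higher and 16.3% lower. By fold alone the counts were 2 and 6, against 7.11% and 22.5% of all genes, and median-ratio scaling gave 3 and 3. That scaling took ATP6V0B to -0.37, LAMP2 to -0.82 and ATP6V1B1 to -0.85, short of the criterion, left ATP6V0E2 at -1.24, and gave 2.02 for CTSA and 1.77 for ATP6V1F. When genes that passed the TPM filter only through HD were left out, a step chosen after seeing the data, 31 members and 15130 genes remained. The members left out were under 1 TPM in each low-density library, so they could not differ by 1 log2 unit there. The member counts by both criteria therefore could not change, at 2 and 4 for RM, 3 and 3 for IL-6 and 2 and 3 for IL-8. Only the shares of all genes could, and they became 7.17% and 22.9% for RM, 8.65% and 6.14% for IL-6 and 8.24% and 15.5% for IL-8.

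RM lay at least 1 log2 unit outside LD, IL-6 and IL-8 alike for 3 members. CTSA was above all of them, by 1.19 from the nearest, where 3.56% of all genes were above. ATP6V0E2 was below all of them, by 1.65, and CTSH, a cysteine protease with aminopeptidase activity, by 1.63, where 7.16% of all genes were below. CTSH rested on 3, 7, 4 and 0 reads in LD, IL-6, IL-8 and RM, and its gap from LD to RM was not detectable at this depth.

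**Figure D3:**
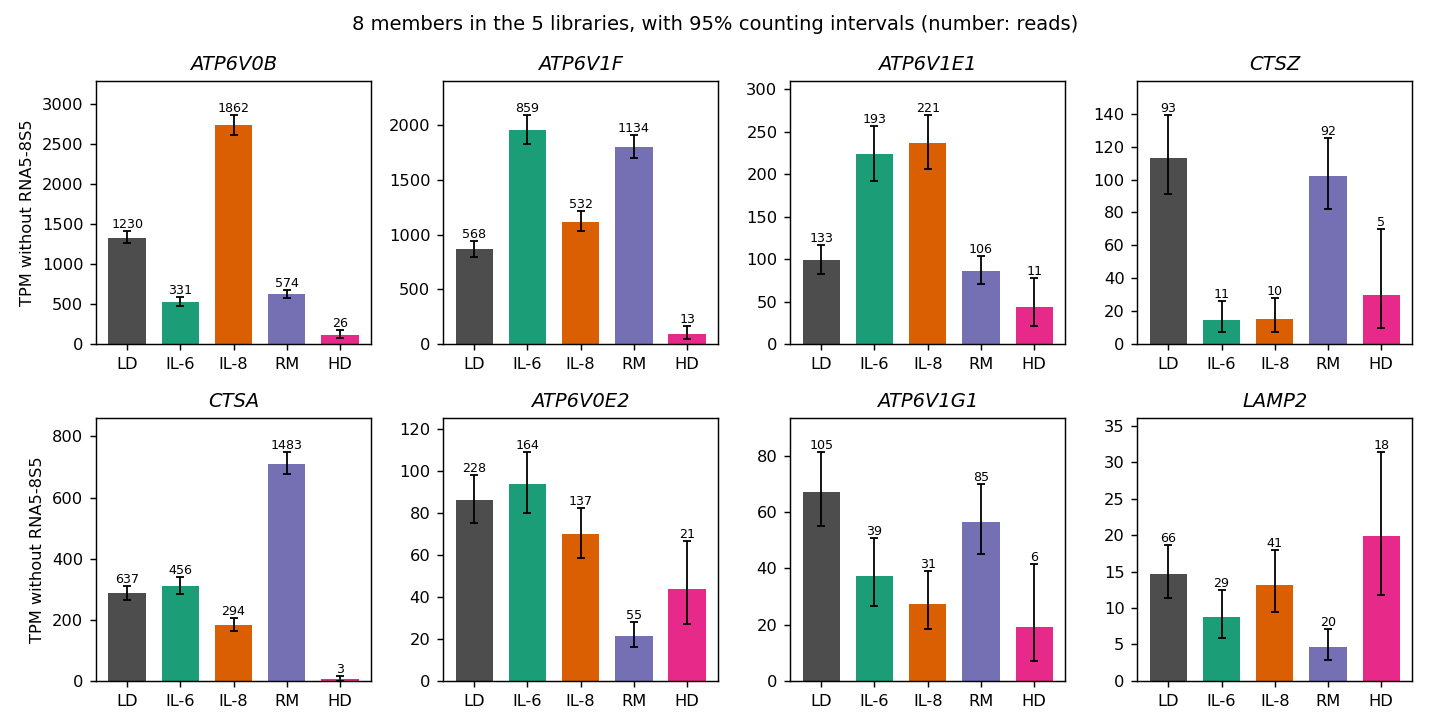
TPM of 8 members in the 5 libraries. Bars are the TPM of the single library of each condition on axes that start at 0, lines are exact 95% intervals for the counting of reads only, and the numbers are reads; CTSZ is low in IL-6 and IL-8 only among the low-density libraries, CTSA is highest and ATP6V0E2 lowest in RM.

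Setting RM beside IL-6 and IL-8 shows each cytokine in the presence of the other, a comparison added after the values were seen. CTSZ had 11 reads in IL-6 and 92 in RM, so that IL-8 added to IL-6 went with a difference of 2.71 (read ratio 6.42, 3.43 to 13.3). IL-6 added to IL-8 went with 2.67 (read ratio 7.19, 3.74 to 15.5). ATP6V1E1 had 193 reads with IL-6, 221 with IL-8 and 106 in RM, with differences of -1.36 (read ratio 0.422, 0.329 to 0.537) and -1.44 (read ratio 0.375, 0.294 to 0.474). For both genes RM was close to LD, at 102 against 113 TPM for CTSZ and 86.2 against 98.5 TPM for ATP6V1E1. ATP6V0B was lower when IL-6 was added, both without IL-8 (-1.33) and with it (-2.13). CTSA was higher when IL-6 was added to IL-8 (1.95) and when IL-8 was added to IL-6 (1.19), whereas each cytokine alone gave 0.11 and -0.65. RM against IL-6 had 2 members higher and 6 lower by both criteria, where the shares of all genes were 4.54% and 16.9%. RM against IL-8 had 4 higher and 4 lower, against 6.98% and 11.3% of all genes.

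More members differed from LD in HD than with any cytokine, and most abundant and most scarce members differed in opposite directions. Most abundant members were lower in HD. CTSA had 637 reads in LD and 3 in HD, or 288 and 5.22 TPM, a difference of -5.54 (read ratio 0.0172, 0.00354 to 0.0506). CTSF, a cysteine protease, had 135 and 2 reads, a difference of -4.29 (read ratio 0.0542, 0.0065 to 0.2). ATP6V0B differed by -3.49, CTSD by -3.46, ATP6V1F by -3.18 and ATP6V0E1, the more abundant gene of the small membrane subunit e, by -3.06. The rotor and stalk partners ATP6V0C and ATP6V0D1 differed by -2.06 and -2.11, and CTSL1 by -2.17. The V1 genes ATP6V1E1, ATP6V1B2, ATP6V1G1, ATP6V1H and ATP6V1D, the V0 gene ATP6V0A1 and CTSZ were also lower by both criteria, by between -1.17 (ATP6V1E1) and -2.23 (ATP6V0A1).

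Most members that were scarce at low density were higher in HD. CTSC had 15 reads in LD, 24 with IL-6, 18 with IL-8, 10 for RM and 202 for HD, a difference from LD of 5.65 (read ratio 49.3, 29.2 to 89.7), and at 163 TPM it was the most abundant member of that library. CTSS, a protease of antigen-presenting cells, had 1 read in LD and 26 in HD (read ratio 95.1, 15.6 to 3900). CTSL2 had 4 and 39 reads, a difference of 4.65 (read ratio 35.7, 12.9 to 137). CTSH had 3 and 20 reads, a difference of 3.90 (read ratio 24.4, 7.24 to 128). LAMP3 had no read in LD and 13 in HD, which made it at least 15.9-fold higher against a floor of 3 reads in LD. ATP6V0D2, the form of subunit d known from osteoclasts and kidney, had 3 and 19 reads (read ratio 23.2, 6.82 to 122). ATP6V0A2 had 15 and 27 reads (read ratio 6.59, 3.38 to 13.3) and ATP6V1C1 37 and 29 reads (read ratio 2.87, 1.7 to 4.79). CTSE had 1 and 9 reads (read ratio 32.9, 4.56 to 1440), CTSK 1 and 5 reads (read ratio 18.3, 2.05 to 865), and ATP6V0E2-AS1 0 and 3 reads, the last at the floor. A further 7 members were higher by fold only, ATP6V1B1 with 44 and 21 reads and 6 others with 1 or 2 reads in HD.

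By fold, 18 members were higher and 16 lower in HD, against 60.1% and 20.3% of all genes. By both criteria the counts were 11 and 16, against 42% and 16.2%. The median difference was 0.48 over the members and 1.85 over all genes, so the members lay below the general shift. Of the 41 members, 10 passed the TPM filter only through HD, and 8 of the 18 higher members were among them, so their direction was fixed by the filter. Without these, 10 members were higher and 16 lower by fold, against 44.2% and 28.6% of 15130 genes, and 8 and 16 by both criteria, against 34.4% and 22.8%. The medians were then -1.17 over the members and 0.51 over the genes. Among the members short of the fold criterion, CTSB differed by -0.13 (read ratio 0.675, 0.547 to 0.827), LAMP1 by -0.98, LAMP2 by 0.41 and the catalytic subunit ATP6V1A by 0.51. Restricted to the 30 members with at least 10 reads in LD or HD, a threshold chosen after seeing the data, 9 were higher and 16 lower by both criteria.

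The direction in HD went with the level in the libraries outside the contrast. The genes were split, after the values were seen, at a mean of 50 TPM over IL-6, IL-8 and RM. Of the 13 members at or above it, 0 were higher and 10 lower in HD, where 5.12% of the 2420 genes of that level were higher and 72.4% lower. Of the 28 members below it, 18 were higher and 6 lower, where 67.2% of 18893 genes were higher and 13.6% lower. Without the members and genes that passed the filter only through HD, 10 of 18 members were higher and 6 lower, where 51.6% of 12710 genes were higher and 20.2% lower. The median difference was -2.17 for the abundant members against -1.87 for the genes of that level. For the scarce members it was 1.99 against 2.22 with those that passed only through HD included. Without them it was 1.49 for the scarce members against 1.11 for the genes, so the order depended on the filter. Some members lay far from genes of their own level. CTSC, in the range of 3 to 10 TPM where the median gene had 12.5 TPM in HD and the upper quartile was 37.4, reached 163 TPM. CTSA, in the range of 300 to 1000 TPM where the median gene had 90.7 TPM and the lower quartile was 45.9, was at 5.22 TPM. CTSD, ATP6V0B and ATP6V1F, in the range from 1000 TPM upwards where the lower quartile was 198, had 97, 117 and 95 TPM. CTSB, in the range of 100 to 300 TPM, had 148 TPM where the upper quartile was 71.7.

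**Figure D4:**
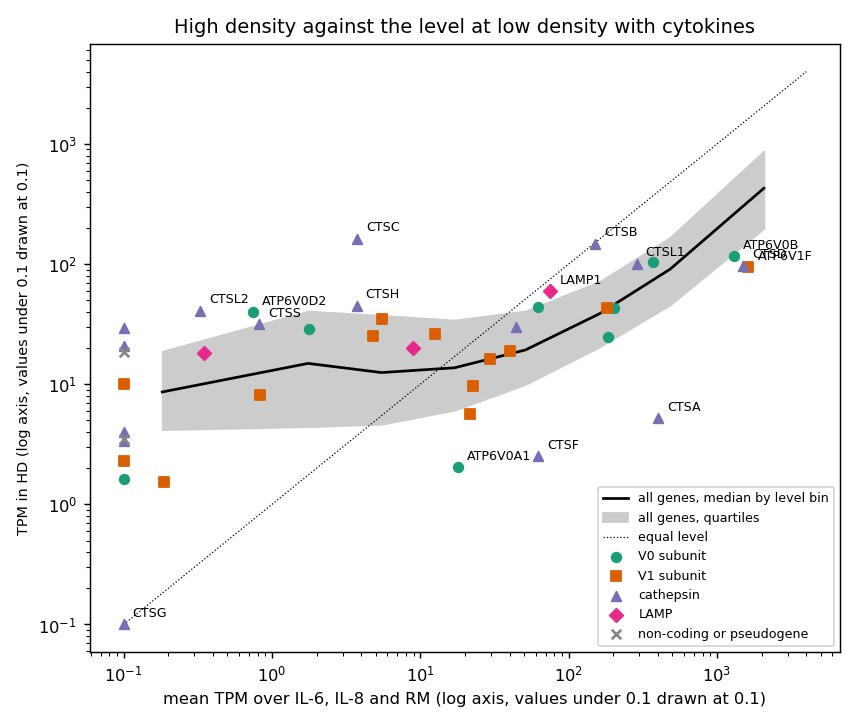
TPM in HD against the mean TPM over IL-6, IL-8 and RM, both on log axes with values under 0.1 drawn at 0.1. The line is the median and the grey band the quartiles of all genes past the TPM filter, in bins of that mean. The lowest bin includes the genes that passed only through HD. The dotted line marks equal levels and the points are the 42 members. Most scarce members lie above the dotted line and the abundant ones below it. CTSC and CTSB are among those above the band, and CTSA, CTSF, CTSD, ATP6V0B and ATP6V1F among those below it.

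The summed levels of markers of other cell types were higher in HD as well. The 8 macrophage markers summed to 9.42 TPM in LD, 15.6 with IL-6, 17.2 with IL-8, 17.2 for RM and 278 for HD. In the low-density libraries 2 or 3 of the 8 had a read, and CD14, CD163, TYROBP and AIF1 were at 0 in each of them, whereas all 8 had a read in HD. PTPRC (118 TPM) and LYZ (90.6 TPM on 13 reads) were highest in HD, and TYROBP and AIF1 had 1 read each. CSF1R went the other way, with 23 to 44 reads and 6.88 to 14.7 TPM at low density and 4 reads and 5.04 TPM in HD. Among the epithelial markers, KRT5 had 0 reads in HD. The labels give connective tissue epithelial cells as the source, and the 4 epithelial markers summed to between 0 and 1.29 TPM at low density and 47.8 TPM in HD, and the 4 endothelial markers to between 0.69 and 1.52 TPM and 68.3 TPM. Among the genes past the TPM filter, those with a mean under 1 TPM over IL-6, IL-8 and RM had a median of 8.62 TPM in HD. They included every gene that passed the filter only through HD, so this median was partly fixed by the filter. The part of the markers, and of the lower depth of HD, in the levels of CTSS, CTSH, CTSC and LAMP3 was not tested.

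Several V-ATPase subunits are encoded by more than 1 gene, and their shares differed between conditions. Subunit a, which anchors the pump and sets its location, is encoded by ATP6V0A1, ATP6V0A2, ATP6V0A4 and TCIRG1, the last outside the naming rule. TCIRG1, the form known for its role in osteoclasts, made up 85.2% of the summed TPM of these genes in LD, 90.4% with IL-6, 87.1% with IL-8, 88.9% for RM and 72.3% for HD. In HD, however, its 84.6 TPM rested on 7 reads, and ATP6V0A2 had 27 reads and 24.6% of the TPM. The order of these genes by reads was thus the reverse of that by TPM. Subunit d was at least 99.3% ATP6V0D1 in the low-density libraries and 52.2% ATP6V0D1 with 47.8% ATP6V0D2 in HD, on 15 and 19 reads. ATP6V0E2 contributed 28.9% of subunit e in LD, 28.2% with IL-6, 31.7% with IL-8, 11.9% for RM and 64% for HD. Since no source states whether counting used strand, its reads cannot be told from those of ATP6V0E2-AS1, which had 0 reads at low density and 3 in HD.

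In V1, ATP6V1B2, the widely expressed gene of subunit B, contributed 74.3% in LD, 78.2% with IL-6, 81.9% with IL-8 and 89.8% in RM. In HD the order was reversed and ATP6V1B1 contributed 68%, with 21 reads against 10. Subunit C was mainly ATP6V1C1, from 89.4% in LD and 91.7% in HD to 100% in IL-6, IL-8 and RM. Subunit E was at least 98.9% ATP6V1E1 and subunit G at least 98% ATP6V1G1 at low density. In HD they were 84.1% and 62.3%, where ATP6V1E2 and ATP6V1G3 had 1 read each. The single-copy subunits were present in each library: ATP6V1A with 25 to 85 reads, ATP6V1H with 4 to 78 and ATP6V1D with 2 to 45.

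**Figure D5:**
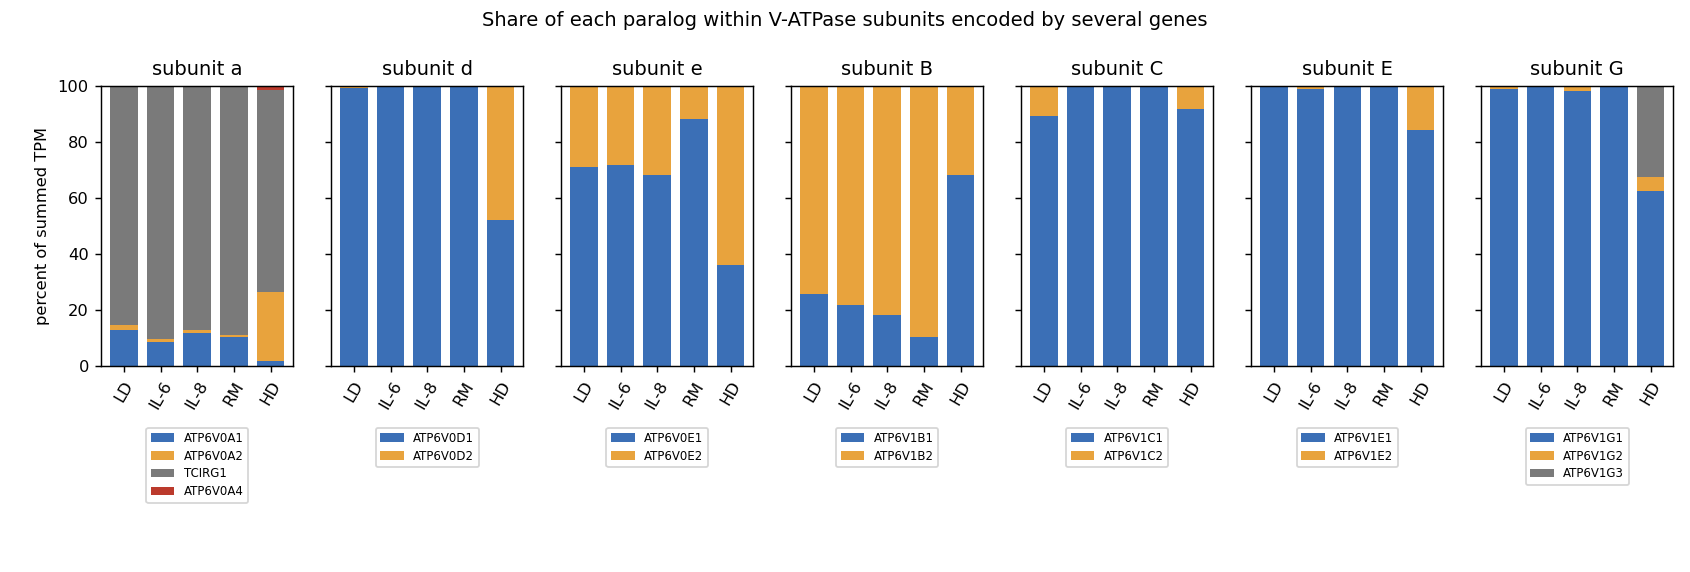
Percent of the summed TPM of each V-ATPase subunit contributed by its genes, in the 5 libraries. Each bar is 1 library and its colours are the genes of that subunit; ATP6V0E2 has its lowest share in RM, and ATP6V0D2, ATP6V0E2 and ATP6V1B1 have their highest shares in HD.

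The members with the E-box in their promoter window were compared with those whose window lacked it. Of the 8 with CACGTGA, 0 were higher and 1 lower in IL-6 by both criteria, 1 higher and 1 lower in IL-8, 1 higher and 2 lower in RM, and 0 higher and 6 lower in HD. Of the 18 compared members whose window lacked it, the counts were 3 and 2, 1 and 2, 1 and 1, and 6 and 7. The shares of all genes were 6.14% higher and 4.36% lower in IL-6, 5.85% and 11% in IL-8, 5.09% and 16.3% in RM, and 42% and 16.2% in HD. In RM, CTSA and both ATP6V0B and ATP6V0E2, all with the element, differed in opposite directions. The median difference in HD was -2.78 with the element and 1.02 without it, but these groups differed in level. Of the 8 with the element, 7 had a mean of at least 50 TPM over IL-6, IL-8 and RM, with a median of -3.46, and of the 18 without it 4 did, with a median of -2.12. By both criteria 5 of these 7 and 4 of these 4 were lower in HD, where 71.5% of the 2420 genes of that level were. The part of the level in the difference between the medians was not tested.

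The factors that bind this element were followed as well. TFE3 had 216 reads in LD, 165 with IL-6, 81 with IL-8, 42 for RM and 3 for HD, a difference of -2.33 in RM (read ratio 0.223, 0.156 to 0.312). TFEB had 34, 25, 34, 41 and 27 reads, with differences of 0.04 with IL-6, 0.41 with IL-8, 0.17 for RM and 2.24 for HD. MITF had between 2 and 5 reads and could not be compared at this depth. In the list of these factors and the mTORC1 machinery that acts on the lysosome, 20 genes were measured. By both criteria 1 was higher and 0 lower with IL-6, 0 and 3 with IL-8, 0 and 5 in RM, and 3 and 9 in HD. The 5 of 20 lower genes in RM stood beside 16.3% of all genes, or 22.9% without the genes that passed through HD, and the 3 in IL-8 beside 11% and 15.5%. The shares of all genes higher and lower were 6.14% and 4.36% in IL-6 and 42% and 16.2% in HD. Beside TFE3, the Ragulator genes LAMTOR5 (42 to 12 reads, difference -1.69) and LAMTOR3 (29 to 7 reads, -1.52) were lower in RM. The Ragulator gene LAMTOR4 had 236 and 449 reads and differed by 0.98 (read ratio 2.18, 1.86 to 2.57), and LAMTOR1 and LAMTOR2 differed by -0.21 and -0.11. The median of the list in RM was -0.58, against 0.00 over all genes and -0.46 without those that passed the filter only through HD.

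V-ATPase genes outside the naming rule, which are TCIRG1 and genes for accessory subunits, assembly and regulation, were higher more often than lower in RM. Of 10 such genes, 5 were higher and 1 lower in RM, where 5.09% and 16.3% of all genes passed. ROGDI, a partner of the rabconnectin complex that assembles the pump, had 26 reads in LD, 25 with IL-6, 335 with IL-8, 1675 for RM and 5 for HD. Its difference was 4.07 in IL-8 (read ratio 18.9, 12.7 to 29.4) and 5.97 in RM (read ratio 73.9, 50.3 to 113). The assembly factor CCDC115 had 14 and 61 reads in LD and RM, a difference of 2.06. TCIRG1 had 213 and 387 reads, a difference of 1.35 (read ratio 2.08, 1.76 to 2.48). In IL-6 the TPM of TCIRG1 differed by 1.01 while its read ratio was 1.06, so the scales disagreed there. They also disagreed in HD, with a difference of -0.07 and a read ratio of 0.12 (0.0478 to 0.252). WDR7, another rabconnectin gene, was lower, with 64 and 14 reads and a difference of -1.70. In IL-8, 3 genes of the list were higher and 3 lower. ATP6AP1, an accessory subunit, had 121 reads in LD and 371 in IL-8, a difference of 2.07, and ATP6AP2, also an accessory subunit, had 91 and 20 reads, a difference of -1.64. The counts were 0 and 2 in IL-6 and 3 and 3 in HD. Over all genes, 6.14% were higher and 4.36% lower in IL-6, 5.85% and 11% in IL-8, and 42% and 16.2% in HD.

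Other hydrolases of the lysosome numbered 36 genes. In RM 3 were higher and 8 lower by both criteria, where 5.09% and 16.3% of all genes passed, or 7.17% and 22.9% without those that passed the filter only through HD. The list median was -0.72, against 0.00 and -0.46 over these sets of genes. GLA, the alpha-galactosidase, had 53 reads in LD and 1 in RM (read ratio 0.0216, 0.000538 to 0.126). MAN2B1, the lysosomal alpha-mannosidase, had 60, 136 and 324 reads in LD, IL-6 and RM, with differences of 1.70 and 2.43. The counts for IL-8 were 2 higher and 4 lower, with GAA, the acid alpha-glucosidase, at 146 and 16 reads and HEXA, a beta-hexosaminidase subunit, at 392 and 64 reads in LD and IL-8. The counts were 4 and 3 in IL-6 and 10 and 13 in HD. Over all genes, 6.14% were higher and 4.36% lower in IL-6, 5.85% and 11% in IL-8, and 42% and 16.2% in HD.

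Among 23 lysosomal membrane proteins, 0 were higher and 9 lower in RM, where 16.3% of all genes were lower, or 22.9% without those that passed the filter only through HD. The list median of -0.58 stood beside -0.46 over the latter genes. SCARB2, the membrane receptor that carries glucocerebrosidase, had 71 reads in LD and 17 in RM, a difference of -1.84. The cystine exporter CTNS had 98 and 25 reads, a difference of -1.72. In IL-8, 1 was higher and 4 lower, and the cholesterol transporter NPC1 had 105 and 18 reads, a difference of -2.18. The counts were 2 and 1 in IL-6 and 6 and 5 in HD. Over all genes, 6.14% were higher and 4.36% lower in IL-6, 5.85% and 11% in IL-8, and 42% and 16.2% in HD.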

How the data were processed

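RNA of 5 HT1080 cultures was primed on poly-A, amplified as a whole cDNA pool with phi29 polymerase, tagmented and read as 50-base single-end reads. The submitters' processing notes name CASAVA 1.4, Bowtie2 2.3.1, RSEM 1.2.25, FastQC and the build GRCh37/hg19; the annotation, settings and filters are not given in the sources used here. The authors deposited an expected count per gene, here whole numbers without normalization, and a TPM value, a unit scaled for transcript length and library depth. The cell-free collagen control of the design was not analysed here.

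TPM values were rescaled to 1000000 per library without RNA5-8S5 and compared as log2(TPM + 1), with a pseudocount of 1, over genes that reached 1 TPM in any library. Log2 differences on this scale understate those of low genes. With 1 library per condition no test was made. Differences were counted from 1 log2 unit, and the stricter count also used the exact 95% conditional binomial (Clopper-Pearson) interval of the ratio of read counts, scaled by library totals without RNA5-8S5. Amplified reads without molecular identifiers are not independent molecules, so intervals and floors (3 reads) cover counting error only.

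Named members were the 12 with the highest mean TPM and, in each comparison with LD, up to 6 with the largest difference past both criteria and at least 20 reads in the higher library; genes of the other lists were named likewise, with TCIRG1, ATP6AP1, ATP6AP2, TFEB, TFE3 and MITF always, and other members where a count or share needed them, after their values were seen. The members and lists were chosen with earlier results of these data known. The stretches of promoter come from RefSeq tables of GRCh38.p14 matched by symbol, not from the build of the files. Scripts ran under Python 3.11.15 with pandas 2.3.3, scipy 1.17.1, numpy 2.4.6 and matplotlib 3.10.9, and the scripts were tested on simulated counts. The alternatives tried were pseudocounts of 0.1 and 5, reads per 1000000, median-ratio scaling, RNA5-8S5 kept, no filter and at least 10 reads in all 5 libraries.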

Additional observations from a re-analysis of the deposited data

Results flagged for a closer look

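For 2 members, a cytokine went past both criteria in opposite directions without and with the other cytokine. CTSZ differed by -2.86 log2 units when IL-6 was added alone and by 2.67 when IL-6 was added to IL-8. It differed by -2.82 when IL-8 was added alone and by 2.71 when IL-8 was added to IL-6. ATP6V1E1 showed the reverse order, with 1.17 for IL-6 alone and -1.44 for IL-6 added to IL-8, and with 1.25 for IL-8 alone and -1.36 for IL-8 added to IL-6. With 1 library per condition the difference between these effects was not tested, and the 4 values of a gene come from 4 libraries that enter them in pairs, so they are not independent. Of the 11 members past both criteria with or without the other cytokine, 1 kept its direction for IL-6 (ATP6V0B) and 0 for IL-8, or 9.09% and 0%, and 2 took opposite directions for each cytokine, or 18.2%. Over all genes past both criteria with or without the other cytokine, 7.11% of 5359 kept and 7.39% reversed direction for IL-6, and 13.1% and 8.12% of 6735 did for IL-8. With counts of 0 to 2, nothing particular to the members was shown.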

How the results depend on the processing

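No paired analysis was possible because each condition had 1 library, and for the same reason no library could be left out. The 44 differences of single members past both criteria kept their sign in all 287 values under the alternatives, of which 13 were under 1 log2 unit. The filters leave a difference as it is and a pseudocount cannot reverse its sign, so those values were bound to keep it. Reads per 1000000 give the read ratio of the stricter criterion, so their sign was bound as well. RNA5-8S5 held 14.5% to 30.3% of the TPM, and keeping it shifts a comparison too little to reverse 1 log2 unit. Only median-ratio scaling could have reversed a sign. With 44 values each, reads per 1000000, median-ratio scaling and RNA5-8S5 kept reversed 0 and took 1, 6 and 2 under 1 log2 unit. The counts by fold depended more on the setting. Against LD, the members at least 1 log2 unit apart numbered 10 with IL-6, 7 with IL-8, 8 for RM and 34 for HD. A pseudocount of 0.1 gave 12 in IL-8 and 14 in RM, and a pseudocount of 5 gave 4 in IL-6 and 4 in IL-8. Reads per 1000000 gave 11 in IL-8. At least 10 reads in all 5 libraries left 16 members to compare, of which 5 differed with IL-6, 3 with IL-8, 5 for RM and 11 for HD, and 1 in place of 3 lay outside the other low-density libraries in RM, the lower number of members being part of that setting. The cause of the other changes was not tested. The median over all genes in HD, 1.85, was 0.88 with a pseudocount of 5, 1.46 with median-ratio scaling and -0.13 with at least 10 reads in all 5 libraries, so the HD differences are relative to a shift that the setting moves. Filtering without the HD library, added after seeing the data, gave 26 in HD. The counts of IL-6, IL-8 and RM, at 10, 7 and 8, could not change under it. The members it left out were under 1 TPM in each low-density library. Depth limits the scarce members: 20 had under 10 reads in HD, and 17 or 18 in each other library.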

Other observations

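Genes that deliver enzymes to the lysosome or hold them in check also differed between the libraries. Of 13 genes of mannose 6-phosphate sorting, the route by which new hydrolases are sent to the lysosome, 0 were higher and 4 lower in RM by both criteria, where 5.09% and 16.3% of all genes passed, or 7.17% and 22.9% without genes that passed the TPM filter only through HD. The list median was -0.89, against -0.46 over the latter genes. The sorting receptor SORT1 had 27 reads in LD, 5 in IL-8 and 2 in RM, and the adaptor GGA1 had 212, 19 and 78 reads. The receptor M6PR was short of the fold criterion in the other direction, with 1289 reads in LD and 2334 in RM, a difference of 0.91 (read ratio 2.08, 1.94 to 2.23), as was GNPTG at 0.74 (read ratio 1.83, 1.44 to 2.34). The counts were 0 and 0 in IL-6, 0 and 3 in IL-8 and 3 and 6 in HD. Over all genes, 6.14% were higher and 4.36% lower in IL-6, 5.85% and 11% in IL-8, and 42% and 16.2% in HD. Of 9 cathepsin inhibitors, 1 was higher and 0 lower in RM. This was SERPINB6, an intracellular serpin, with 133 reads in LD, 44 in IL-8 and 1134 in RM, a difference of 3.17 in RM (read ratio 9.78, 8.17 to 11.8) and of -1.27 in IL-8. The other counts were 0 and 0 in IL-6, 0 and 2 in IL-8 and 3 and 2 in HD. They stand beside the same shares of all genes as the sorting genes.

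Of 24 autophagy genes, 4 were higher and 11 lower in RM by both criteria, with a median of -0.57, where 5.09% and 16.3% of all genes passed, or 7.17% and 22.9% without those that passed the filter only through HD. The conjugation genes ATG16L1 (53 and 1 reads), ATG7 (87 and 12 reads) and ATG5 (20 and 3 reads) and the initiating kinase ULK1 (47 and 4 reads) were lower in RM than in LD. The tethering genes VPS16 (80 and 296 reads) and VPS11 (33 and 113 reads) and the membrane protein ATG9A (236 and 554 reads) were higher, while the tethering genes VPS18 (576 and 269 reads), VPS33A (106 and 39 reads) and VPS41 (53 and 13 reads) were lower. In IL-8, ATG9A was lower than in LD, with 60 reads. The counts were 2 and 3 in IL-6, 3 and 6 in IL-8 and 2 and 9 in HD, where SQSTM1, the autophagy receptor p62, had 59 reads against 5451 in LD. Over all genes, 6.14% were higher and 4.36% lower in IL-6, 5.85% and 11% in IL-8, and 42% and 16.2% in HD.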
